A study of Mus musculus with 11 samples.

Results

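The interaction of genotype and treatment is measured gene by gene. It asks whether colonic epithelium of miR-181 knockout mice answers dextran sulphate sodium (DSS) differently from wild-type (WT) epithelium. For each gene it is the log2 fold change from baseline to DSS in the knockout minus the same change in WT, so a value above 0 marks a response that was higher in the knockout. It was fitted to all 11 of the 11 libraries in the series, and its members are the 18498 autosomal genes among the 19267 genes that passed a filter on low counts. The deposited table holds 47996 autosomal genes among 54513, and no gene was chosen by its values. Messenger RNA was measured in colonic intestinal epithelial cells from 4 groups: WT at baseline (n = 2), miR-181 double knockout (DKO) at baseline (n = 3), WT after DSS (n = 3) and DKO after DSS (n = 3). In DKO mice the clusters miR-181a1-b1 and miR-181a2-b2 are deleted. DSS mice received 2% DSS for 7 days followed by 2 days of recovery, and Percoll, a density medium, was used on the cells to take lymphocytes away. The labels give no strain, age or sex and do not tell how many mice stand behind a library. Each library title carries the term "biol rep" with a number. The p-values rest on the spread between libraries, and how much of it lies between mice is unknown.

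DSS damages the lining of the colon and provokes colitis, after which the crypts repair the surface from their stem cells. The surface is made of absorptive colonocytes, which take up sodium, water and short-chain fatty acids, and of secretory cells, which include mucus-producing goblet cells, hormone-producing enteroendocrine cells and the deep crypt secretory cells that lie next to the stem cells. During injury the epithelium also receives interferons, interleukin 22 and glucocorticoids, each of which switches on its own set of genes. MicroRNAs of the miR-181 family lower the stability and translation of messenger RNAs whose 3' UTR pairs with the seed of the microRNA, and the family is best known from lymphocyte development and signalling.

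The 2 mature microRNAs removed in DKO are shown because every pairing rule used further on rests on their seed. They are given 5' to 3' from RefSeq (GRCm38.p6), with the seed, bases 2 to 8, in capitals.
mmu-miR-181a-5p: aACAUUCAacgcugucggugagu
mmu-miR-181b-5p: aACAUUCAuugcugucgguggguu
Both carry the same seed, ACAUUCA, and each is encoded at both deleted clusters. On chromosome 1 miR-181a-5p lies at chr1:137966468-137966490 and miR-181b-5p at chr1:137966650-137966673, and on chromosome 2 they lie at chr2:38852741-38852763 and chr2:38853845-38853868. Libraries of polyadenylated RNA do not measure mature microRNAs. Whether other microRNAs with the same seed remain in DKO was not tested. Mir181a-1hg, from which the chromosome 1 cluster is transcribed, was at 0.0851 to 0.628 CPM in all 11 libraries (CPM are counts relative to library size, scaled by the TMM method), and its interaction was -0.57 ± 0.70 (adjusted p = 0.712). Nr6a1, which spans the second cluster, was at 10.6 to 24.4 CPM, with an interaction of 0.67 ± 0.25 (adjusted p = 0.173). Neither checks the deletion, since which bases were deleted is not in the labels.

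Libraries held 41631951 to 52761900 counts, and epithelial markers were high in each of them, with Epcam, the epithelial adhesion molecule, at 1096 to 1758 CPM and Krt8, a simple-epithelium keratin, at 3862 to 6890. An entry for 18S ribosomal RNA took 23.05% and 8.462% of counts in baseline DKO replicates 1 and 2, against 0.1281% to 1.586% elsewhere. Xist, expressed from the inactive X chromosome of females, was at 6.75 to 14.5 CPM in the 5 baseline libraries and 633 to 906 in the 6 DSS libraries, whereas the Y-linked Ddx3y was at 42.6 to 54.9 and 0.162 to 0.895. Baseline libraries thus had a male and DSS libraries a female pattern in both genotypes. An interaction of genotype with DSS and one of genotype with sex cannot be told apart here, which holds for every result that follows. Nnt separated the genotypes before DSS: 25.9 and 27.1 CPM for WT against 64.3, 80.55 and 59.96 for DKO. By edgeR this baseline log2 fold change was 1.37 ± 0.14 (adjusted p = 0.0053). The gap remained after DSS, with means of 24.5 for WT and 49.7 for DKO, and the interaction was not called (adjusted p = 0.340). Whether the genotypes also differ in strain background was not tested. DSS DKO replicate 1 stood apart from replicates 2 and 3 of its group in several gene groups described further on, and lay nearer to DSS WT in them.

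DSS changed many genes in each genotype, and the 2 responses differed for a small share of them. A gene is called where edgeR's quasi-likelihood F-test, after Benjamini-Hochberg adjustment, gave a p under 0.05. In WT 6431 of 19267 genes (33.4%) responded to DSS, 16.9% of the 19267 rising and 16.5% falling. In DKO 4545 (23.6%) responded, 12.6% rising and 11% falling. The interaction was called for 302 of the 19267 genes (1.57%), and for 286 of the 18498 autosomal genes (1.55%), 144 above 0 (0.778%) and 142 below 0 (0.768%). Of the 16 others, 11 lie on X, 4 on Y and 1 has no place in the annotation. Unadjusted, 3636 of the 19267 genes had a p under 0.05. Across genes, the responses of WT and DKO, which share no library, had a Pearson r of 0.54 and a Spearman rho of 0.58, given as a description because genes are not independent. Of 2581 autosomal genes called in both responses, 2533 moved the same way and 48 (1.86%) moved in opposite ways.

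The 286 called genes had a median interaction of 1.48 in size on the log2 scale and a minimum of 0.68; 234 differed at least 2-fold and 95 at least 4-fold. They were expressed at a median of 4.61 log2 CPM, against 3.04 for all autosomal genes tested, and 92.7% were protein-coding, against 77.5%. Each autosome held called genes, from 0.985% of those tested on chromosome 12 to 2.45% on chromosome 16, and chromosomes 1 and 2, which carry the deleted clusters, held 1.46% and 1.44%. Of the 286, 70 were on at least 1 of the 43 gene lists used here and 216 on none. Genes on these lists, which were drawn up with earlier results of these data known, were called in 7.19% of 973.

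Lost, gained, reversed, enlarged and reduced responses were each found. The response was called in WT and not in DKO for 120 of the 286 genes: 61 of these rose in WT with a median log2 fold change of 1.05 against -0.10 in DKO, and 59 fell with a median of -1.37 against 0.16. It was called in DKO and not in WT for 83 genes, of which 39 rose in DKO (median 2.1 against -0.29 in WT) and 44 fell (median -1.40 against 0.07). For 42 genes both responses were called in opposite directions, 23 falling in WT and rising in DKO (medians -0.88 and 0.87) and 19 rising in WT and falling in DKO (medians 0.71 and -0.93). Another 21 genes moved the same way and further in DKO, among them 11 that fell by a median of -1.52 in WT and -4.06 in DKO, and 20 moved the same way and less far in DKO. No called gene lacked a called response in both genotypes. These classes use the same libraries as the interaction and are a description. Over all genes the response was called in WT only for 127 and in DKO only for 86, and this order depended on single libraries. It was 40 and 43 without baseline DKO replicate 1. Without baseline WT replicate 2 it was 3 and 4. With DSS DKO replicate 2 left out it was 9 and 16. The counts were 18 and 27 when DSS WT replicate 2 was left out, and 12 and 26 when replicate 3 was. Without baseline WT replicate 1 both counts were 0. At baseline edgeR called 0 of the 286 between DKO and WT (53 had an unadjusted p under 0.05), against 0.0216% of autosomal genes tested. After DSS it called 282, against 11.2% of all genes. Both comparisons share their libraries with the interaction.

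**Figure D1:**
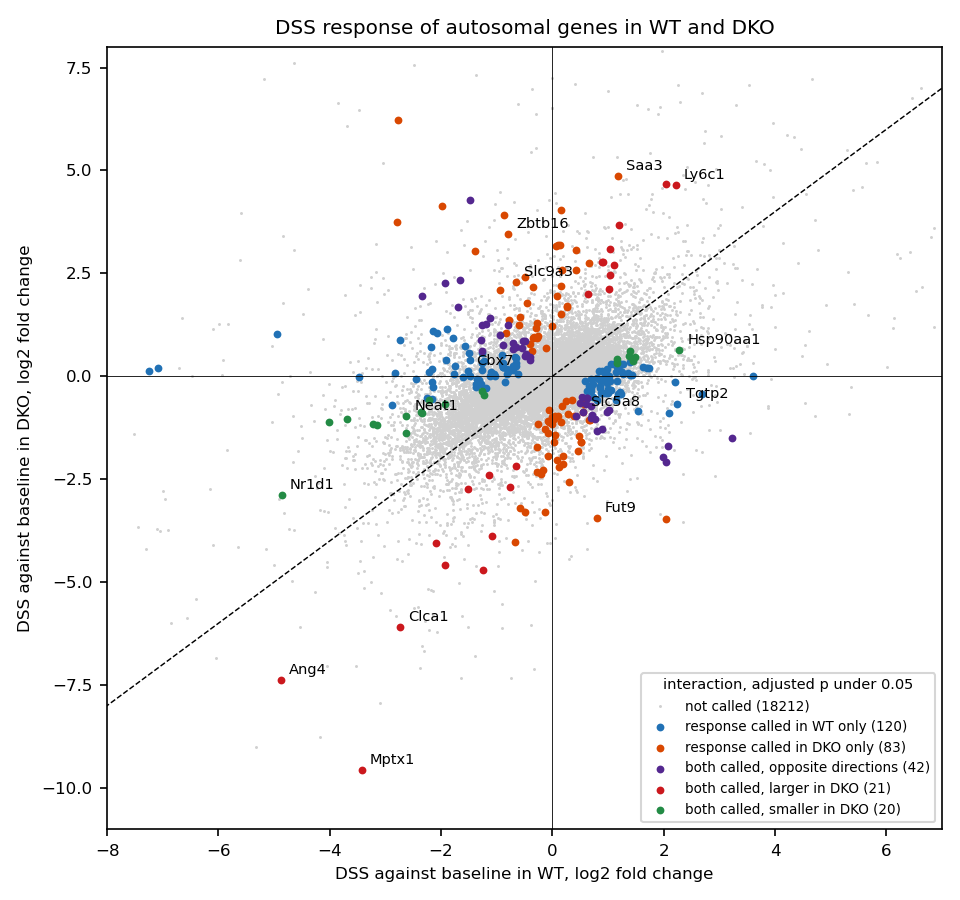
Log2 fold change from baseline to DSS in WT (x axis) and in DKO (y axis), 1 point per autosomal gene tested; colours mark the 286 genes called in the interaction by class, grey the rest, and the dashed line equal responses. The 42 purple genes lie in the upper left and lower right quadrants, the 21 red genes lie further from 0 in DKO, and 7 genes outside the plotted range are not called.

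The count of calls depended on single libraries, baseline WT above all, where each fit without 1 library leaves 1 sample that is assumed to vary like the other groups. Without baseline WT replicate 1 or 2 the interaction was called for 2 and 18 genes. It was called for 98 to 146 genes without 1 of the baseline DKO libraries and for 60 to 340 without 1 of the DSS WT libraries. Without DSS DKO replicate 1, 2 or 3 the counts were 1498, 43 and 385. Clca1 and St3gal1 were called in each of the 11 fits, 15 of the 286 genes in at least 10, 38 in at least 9, 76 in at least 6 and 24 in 1 or none, with a median of 4. Of 93 called genes, those that the naming rule chose and 10 further list members, 2 and 16 remained called without baseline WT replicate 1 and 2, 45 to 58 without 1 of the baseline DKO libraries, 80, 42 and 36 without DSS WT replicate 1, 2 and 3, and 93, 33 and 87 without DSS DKO replicate 1, 2 and 3. All 286 genes passed the filter in each of the 11 fits, and the sign of the interaction stayed the same in each. These fits share most of their libraries with the fit that chose the genes, so the sign is no independent check. With baseline DKO replicates 1 and 2, the libraries rich in ribosomal RNA, both left out, 86 genes were called and 57 of the 286 were among them.

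**Figure D2:**
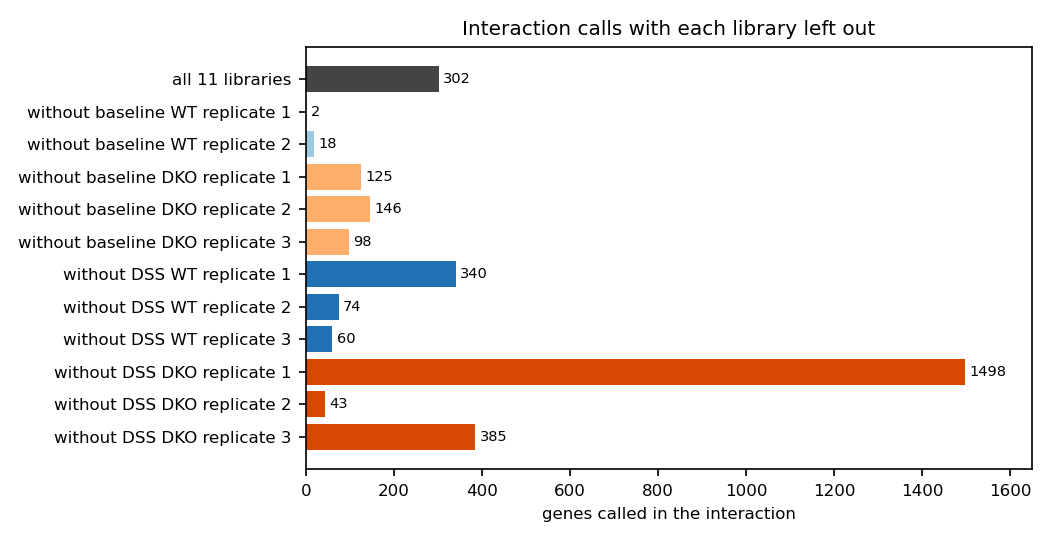
Number of genes called in the interaction (x axis) with all 11 libraries and with each library left out in turn, coloured by the group of that library. The count was 302 with all libraries, lay between 2 and 1498 with 1 left out, and was lowest without baseline WT replicate 1.

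Clca1, Mptx1 and Ang4, secretory products of the crypt, fell after DSS in both genotypes and further in DKO. Clca1, a protease that goblet cells secrete to process mucus (chr3:145003817-145032776), was at 16500 and 14950 CPM in WT at baseline, 14380, 14430 and 18890 in DKO at baseline, 2493, 2502 and 2043 in DSS WT and 269, 203 and 225 in DSS DKO. The 2 genotypes overlapped at baseline, and each DSS DKO library was below each DSS WT library. Here and further on, such separation is a description of genes chosen by their call, and its share over all genes was not counted. Clca1 fell by 2.74 ± 0.18 on the log2 scale in WT and fell by 6.09 ± 0.20 in DKO (± SE here and for all log2 fold changes), an interaction of -3.35 ± 0.25 (adjusted p = 0.000253). It was called without each library in turn, with an adjusted p of at most 0.00713. Of 25 goblet cell genes tested it was the one called, against 1.55% of autosomal genes and 7.19% of those on the lists. Of the 25, 19 had estimates below 0, with a median interaction of -0.27, against 0.02 over all 19267 genes. After DSS 14 of the 25 fell in DKO and 10 in WT, against 11% and 16.5% of all genes.

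Of 14 genes of deep crypt secretory cells, 4 were called below 0, 0 above and 10 were not called, with a median interaction of -0.56. Mptx1, a mucosal pentraxin secreted in the crypt (chr1:174330518-174332873), was at 3499 and 3784 CPM in WT at baseline, 2908, 2719 and 4993 in DKO at baseline, 392, 399.5 and 223 in DSS WT and 5.42, 5.53 and 2.97 in DSS DKO. It fell by 3.43 ± 0.35 in WT and fell by 9.57 ± 0.44 in DKO. Its interaction of -6.14 ± 0.52 (adjusted p = 0.00225) was the lowest of the 4. Ang4, an antimicrobial ribonuclease, was at 903 and 979 CPM in WT at baseline, 709.7, 535 and 1429 in DKO at baseline, 29.2, 34.5 and 32.1 in DSS WT and 4.98, 6.46 and 4.63 in DSS DKO. For Ang4 the interaction was -2.50 ± 0.47 (adjusted p = 0.0325). Reg4, a lectin that marks these cells, did not pass the test of a DSS response in WT (-0.58 ± 0.36) and fell by 3.21 ± 0.35 in DKO, from 401, 279.7 and 586 to 68.3, 40.4 and 28.4 CPM (interaction -2.63 ± 0.50, adjusted p = 0.0364). Reads of Ang4 and Mptx1 are uncertain where they match near-identical relatives. Cd44, a hyaluronan receptor of the crypt base, differed from the other 3 in its pattern: it rose by 0.98 ± 0.19 in WT, where it went from 54.2 and 65.9 to 102, 118 and 136 CPM, and was at 50.3, 42.5 and 63.1 in DSS DKO. For Cd44 the interaction was -1.16 ± 0.25 (adjusted p = 0.0431). Of these 4 calls, 0 remained without baseline WT replicate 1, 1 without baseline WT replicate 2, baseline DKO replicate 1, DSS WT replicate 2 or 3 or replicate 2 of DSS DKO, and 4 without replicate 1 of DSS DKO.

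Smoc2, a matrix protein of the stem cell zone, was the one called of 22 crypt stem cell genes, against 7.19% of all listed autosomal genes. It was at 25.2 and 28.8 CPM in WT at baseline, 23.4, 28.6 and 26.7 in DKO at baseline, 45, 46.1 and 47.1 in DSS WT and 17, 10.5 and 11.04 in DSS DKO. Smoc2 rose in WT (0.77 ± 0.20) and fell in DKO (-1.03 ± 0.17), a reversed response with an interaction of -1.80 ± 0.26 (adjusted p = 0.0123), and lost its call without baseline WT replicate 1 or 2 (adjusted p = 0.0714 and 0.0644). The stem cell list had a median interaction of -0.32 and 14 of 22 estimates below 0. Esrrg, an orphan nuclear receptor, Itih2, which encodes a heavy chain of the inter-alpha-trypsin inhibitors, and Sycn, a protein of secretory granules, had enlarged falls like those of Clca1. Sycn went from 184 and 300.4 to 68.99, 59.8 and 42.4 CPM in WT and from 246, 241 and 291 to 16.8, 12.96 and 16.9 in DKO (interaction -1.97 ± 0.32, adjusted p = 0.0168), Itih2 had an interaction of -2.65 ± 0.41 (adjusted p = 0.0135) and Esrrg one of -1.94 ± 0.28 (adjusted p = 0.0123).

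Enzymes that build and trim sugar chains of glycoproteins were called in both directions. St3gal1, the sialyltransferase that caps core O-glycans (chr15:67102875-67176830), was at 29.6 and 35.5 CPM in WT at baseline, 26.6, 25.3 and 22.4 in DKO at baseline, 14.2, 13.1 and 13.1 in DSS WT and 31.03, 42.4 and 40.4 in DSS DKO. It fell in WT (-1.27 ± 0.16) and rose in DKO (0.62 ± 0.14), so that the DSS DKO libraries lay above the DSS WT libraries while the baseline DKO libraries lay below the baseline WT libraries. Its interaction was 1.89 ± 0.21 (adjusted p = 0.00430), called in each of the 11 fits without 1 library. Fut9, a fucosyltransferase, was at 10.5 and 10.8 CPM in WT at baseline, 11.6, 10.9 and 11.3 in DKO at baseline, 20.2, 18.3 and 17.1 in DSS WT and 1.998, 0.729 and 0.318 in DSS DKO. For Fut9 the interaction was -4.24 ± 0.67 (adjusted p = 0.0169). Of 31 glycosyltransferase genes these 2 were called, with a median interaction of -0.30. Neu1, the lysosomal sialidase, was reversed in the direction of St3gal1 (-0.54 ± 0.12 in WT, 0.68 ± 0.11 in DKO; interaction 1.22 ± 0.16, adjusted p = 0.0116).

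Sodium transporters were called above 0, and a phosphate and a calcium transporter below 0. Slc9a3, the apical sodium-proton exchanger (chr13:74121457-74169442), was at 249.9 and 197 CPM in WT at baseline, 244, 224 and 202 in DKO at baseline, 156, 128 and 139 in DSS WT and 751, 985 and 1529 in DSS DKO. The 6 DSS libraries did not overlap between genotypes, and DSS DKO was above every baseline library. Slc9a3 rose in DKO (2.29 ± 0.23) and did not pass in WT (-0.66 ± 0.24; adjusted p = 0.0514), with an interaction of 2.95 ± 0.32 (adjusted p = 0.00430). Scnn1b, of the epithelial sodium channel, fell in WT from 12 and 12.5 to 5.45, 7.14 and 6.94 CPM and was at 12.7, 12.9 and 12.2 in baseline DKO and at 13.5, 19.3 and 21.6 in DSS DKO. For Scnn1b the interaction was 1.44 ± 0.27 (adjusted p = 0.0268). Of the 24 electrolyte transport genes, Slc9a3 and Scnn1b were called above 0 and 2 below, with a median interaction of 0.12. The 2 below were Slc34a2, a sodium-phosphate cotransporter, at 19.8, 21.7 and 21.3 CPM in baseline DKO and 5.22, 3.95 and 5.12 in DSS DKO (interaction -2.33 ± 0.30, adjusted p = 0.00912), and Trpv6, the apical calcium channel, at 9.44, 9.25 and 7.24 in baseline DKO and 1.87, 0.324 and 0.0907 in DSS DKO. For Trpv6 the interaction was -5.51 ± 1.11 (adjusted p = 0.0462). Trpv6 was at 30.6, 18.9 and 13.9 CPM in DSS WT against 5.94 and 4.30 in baseline WT, and had the largest SE of the 4. Of these 4 calls, 0 remained without baseline WT replicate 1, 1 without baseline WT replicate 2, and 2 to 4 without any other library.

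The 2 called bile acid transporters lay above 0, and the called monocarboxylate and iron transporters below 0. Slc10a2, which imports bile acids at the apical membrane, was at 16.1 and 25.8 CPM in WT at baseline, 25.3, 14.1 and 16.1 in DKO at baseline, 19.98, 23.7 and 23.4 in DSS WT and 116, 164 and 223 in DSS DKO. For Slc10a2 the interaction was 3.08 ± 0.42 (adjusted p = 0.0123). DSS WT lay within the range of the baseline libraries and DSS DKO above every other library. Slc51a, a subunit of the basolateral bile acid exporter, was at 36.8, 33.2 and 34.3 CPM in DSS WT and 80.97, 132 and 132 in DSS DKO. For Slc51a the interaction was 1.44 ± 0.29 (adjusted p = 0.0346). Slc5a8, which imports butyrate and other monocarboxylates, was reversed: it was at 331 and 353 CPM in WT at baseline, 375, 358 and 331 in DKO at baseline, 467, 522 and 513 in DSS WT and 206, 166 and 211 in DSS DKO. For Slc5a8 the interaction was -1.42 ± 0.17 (adjusted p = 0.00811). Slc16a12, a monocarboxylate carrier family member that moves creatine, fell in DKO from 5.73, 7.43 and 6.85 to 0.592, 0.162 and 0.454 CPM (interaction -3.37 ± 0.47, adjusted p = 0.0123). Tfrc, the transferrin receptor, rose in both genotypes and less in DKO (1.48 ± 0.14 in WT, 0.47 ± 0.12 in DKO; interaction -1.01 ± 0.18, adjusted p = 0.0239). Of 26 bile acid, vitamin and nutrient transport genes, these 2 were called above 0 and 3 below, with a median interaction of 0.10; 0 of the 5 calls remained without baseline WT replicate 1, 1 without baseline WT replicate 2, and 3 to 5 without any other library.

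Of 29 absorptive colonocyte genes, 4 were called above 0 and 0 below, with a median interaction of 0.29: Slc9a3, Scnn1b, Slc51a and Apoa1, a lipoprotein that was under 5 CPM in every library (interaction 6.11 ± 1.22, adjusted p = 0.0400). Cobl, an actin nucleator of microvilli, fell in WT from 77.8 and 67.7 to 40.8, 38.7 and 36.97 CPM and was at 77.95, 86.1 and 96.95 in DSS DKO. For Cobl the interaction was 1.21 ± 0.17 (adjusted p = 0.0123). Slc6a6, the taurine transporter, was reversed and above 0 (interaction 1.37 ± 0.20, adjusted p = 0.0123), whereas Cdo1, which starts taurine synthesis from cysteine, was reversed and below 0 (interaction -1.38 ± 0.20, adjusted p = 0.0123). Cdo1 was at 54.2, 48.9 and 49.5 CPM in DSS WT and 21.1, 21.7 and 21.3 in DSS DKO, and Slc6a6 at 123, 115 and 121 and 231, 259.5 and 325. Ggt1, which breaks down glutathione at the cell surface, rose in both genotypes, to 4.60, 6.43 and 5.62 CPM in WT and 23.3, 24.4 and 26.9 in DKO (interaction 1.89 ± 0.28, adjusted p = 0.0123). The membrane mucin gene Muc3a fell in both and less in DKO (-2.63 ± 0.16 in WT, -1.37 ± 0.14 in DKO). Of the colonocyte calls, 4 remained without DSS DKO replicate 1 or 3, 3 without DSS WT replicate 1, 2 without DSS DKO replicate 2, 0 without baseline WT replicate 1 and 1 without each of the 6 remaining libraries.

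**Figure D3:**
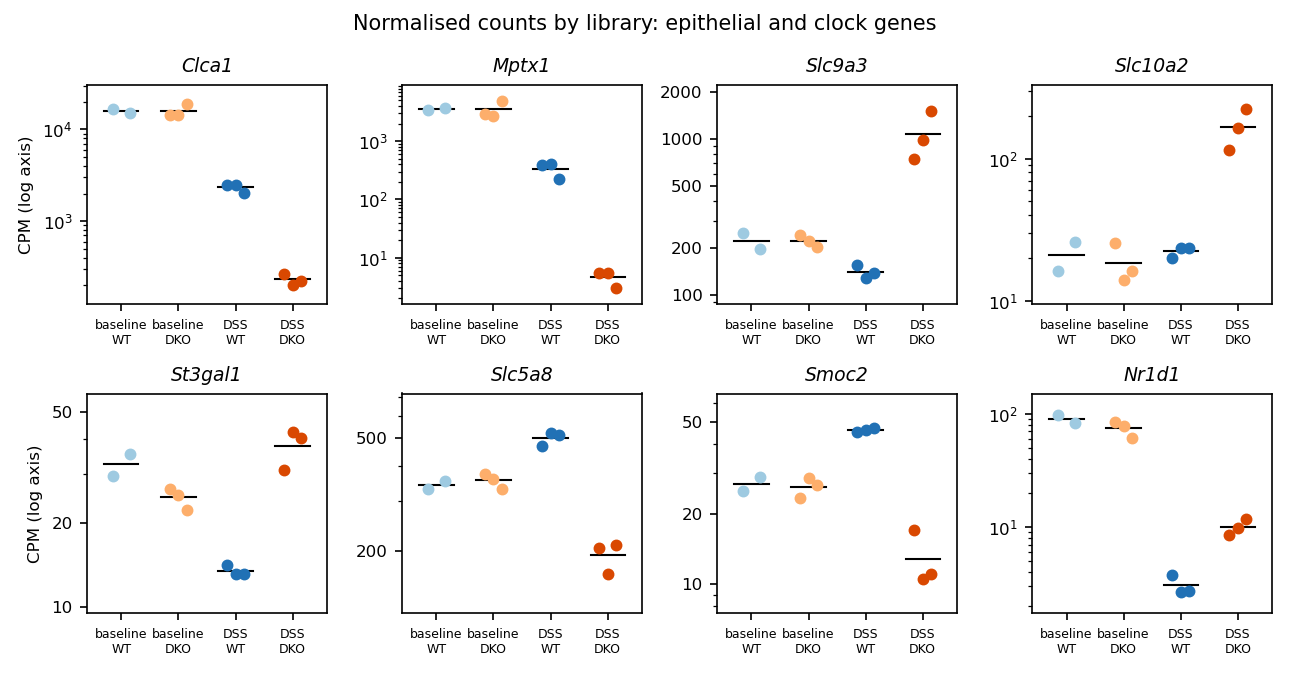
TMM-scaled CPM (y axes, logarithmic) of 8 genes called in the interaction, 1 point per library (baseline WT n = 2, the other groups n = 3), with lines at group means. Clca1 and Mptx1 were lowest in DSS DKO, Slc9a3 and Slc10a2 were highest there, St3gal1, Slc5a8 and Smoc2 had responses of opposite sign in the 2 genotypes, and Nr1d1 fell in both.

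Over all genes 16.9% rose and 16.5% fell after DSS in WT, and 12.6% rose and 11% fell in DKO. Of 32 genes that interferon gamma induces, 14 rose and 0 fell in WT, whereas 2 rose and 11 fell in DKO. In the interaction 7 were called below 0 and 0 above, 30 of the 32 estimates were below 0, and the median was -0.93. Tgtp2, an interferon-inducible GTPase that attacks the membranes of intracellular parasites, was at 1.72 and 1.13 CPM in WT at baseline, 2.20, 1.33 and 1.77 in DKO at baseline, 8.27, 5.24 and 6.81 in DSS WT and 1.39, 0.911 and 0.975 in DSS DKO. For Tgtp2 the interaction was -2.93 ± 0.44 (adjusted p = 0.0126). Igtp, a GTPase of the same family, was reversed, at 17.4 and 20.1 CPM in WT at baseline, 25.1, 18.5 and 19.6 in DKO at baseline, 45.9, 30.9 and 34.1 in DSS WT and 15.5, 10.2 and 9.003 in DSS DKO. For Igtp the interaction was -1.84 ± 0.33 (adjusted p = 0.0225). Irgm2, a regulator of these GTPases, fell in DKO (-0.97 ± 0.13) and did not pass in WT (0.38 ± 0.14), with an interaction of -1.35 ± 0.19 (adjusted p = 0.0123). For each of the 3 genes, every DSS DKO library was below every DSS WT library. Tgtp1 (interaction -4.73 ± 0.71, adjusted p = 0.0126) and Irgm1 (interaction -1.27 ± 0.28, adjusted p = 0.0495) complete the called GTPases. Tgtp1 and Tgtp2 are near-identical copies, and the annotated spans of Igtp and Irgm2 on chromosome 11 overlap, so their reads may be split or shared.

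Genes of antigen processing were called below 0 too. Psmb9, a subunit of the immunoproteasome, was at 23.7 and 18.9 CPM in WT at baseline, 24.8, 21.2 and 21.6 in DKO at baseline, 46.4, 39.9 and 38.8 in DSS WT and 20.4, 16.8 and 13.8 in DSS DKO. For Psmb9 the interaction was -1.38 ± 0.24 (adjusted p = 0.0202). Of 34 type I interferon response genes, 2 were called below 0, Bst2, the antiviral protein tetherin (interaction -1.72 ± 0.35, adjusted p = 0.0342), and Oas1a, a sensor of viral RNA with close paralogs (interaction -1.26 ± 0.28, adjusted p = 0.0441), and all 34 estimates were below 0 with a median of -0.94. Of 21 genes of MHC class I and peptide loading, Psmb9 and H2-Q10, a class I molecule with close paralogs (interaction -2.86 ± 0.40, adjusted p = 0.0123), were called below 0, with a median of -0.47. Of 13 MHC class II genes 0 were called by edgeR, DESeq2 or limma-voom and 1 had an unadjusted p under 0.05, with a median of -0.67. Of the 7 interferon gamma calls, 0 remained without baseline WT replicate 1, 1 without baseline WT replicate 2, 3 without baseline DKO replicate 1, replicate 2 of DSS DKO or replicate 3 of DSS WT, and 7 without DSS DKO replicate 1.

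Markers of T cells, intraepithelial lymphocytes and natural killer cells, which make interferon gamma, moved with this group. Their 29 genes, all of which passed the filter, summed to 45.5 to 79.0 CPM in baseline WT, 49.6 to 68.2 in baseline DKO, 187 to 209 in DSS WT and 60.8 to 112 in DSS DKO. By edgeR 0 of the 29 were called in the interaction, at a median of -1.07 with 27 estimates below 0; 14 had an unadjusted p under 0.05, each below 0, and 6 were called by DESeq2, 0 by limma-voom and 6 without DSS DKO replicate 1. In their DSS response 16 rose in WT and 3 in DKO, against 16.9% and 12.6% of all genes. Each defining marker had counts, with Cd3e between 41 and 148 counts per library and Fasl at 0 in 1 library. In bulk libraries fewer cells of a type and less RNA per cell cannot be told apart, and the part of these cells in the interferon result was not tested.

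Promoters of 3 of the GTPase genes are printed because they share 2 letter patterns next to each other. The sequences run 5' to 3' from 250 bases before to 50 bases after the RefSeq gene start (GRCm38.p6), on the strand of the gene, with the pattern TTCNNNGAA (GAS, the gamma-activated sequence) and the ISRE core, 2 copies of GAAA with any 2 bases between them, in capitals.
Irgm2, chr11:58214727-58215026, plus strand: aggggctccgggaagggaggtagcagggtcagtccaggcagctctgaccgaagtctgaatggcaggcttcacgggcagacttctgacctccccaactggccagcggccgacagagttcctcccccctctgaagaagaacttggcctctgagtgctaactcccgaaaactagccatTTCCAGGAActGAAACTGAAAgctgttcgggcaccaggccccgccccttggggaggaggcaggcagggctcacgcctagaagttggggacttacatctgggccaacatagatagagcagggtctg
Igtp, chr11:58199306-58199605, plus strand: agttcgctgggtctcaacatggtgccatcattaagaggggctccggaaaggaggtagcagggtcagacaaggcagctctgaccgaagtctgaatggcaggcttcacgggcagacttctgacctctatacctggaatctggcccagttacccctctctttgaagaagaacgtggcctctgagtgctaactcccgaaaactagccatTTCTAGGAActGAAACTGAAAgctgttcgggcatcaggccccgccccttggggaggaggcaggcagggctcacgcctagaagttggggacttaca
Tgtp2, chr11:49064163-49064462, minus strand: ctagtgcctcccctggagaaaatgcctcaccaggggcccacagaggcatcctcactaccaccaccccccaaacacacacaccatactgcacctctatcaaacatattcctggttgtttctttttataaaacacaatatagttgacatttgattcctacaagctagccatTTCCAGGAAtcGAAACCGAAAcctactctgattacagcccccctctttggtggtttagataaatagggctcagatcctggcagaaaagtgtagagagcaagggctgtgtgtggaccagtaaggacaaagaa
In these 3 and in Tgtp1 the GAS pattern began 11 bases before the ISRE core, at -75, -45, -81 and -88 bases from the start in Irgm2, Igtp, Tgtp2 and Tgtp1. Both strands were searched, and in Bst2 the matches to the 2 patterns overlap. Of the 6 called interferon gamma genes with a promoter in the RefSeq table, 4 held the GAS pattern and 5 the ISRE core, and both called type I genes held both. Over all 32851 mouse promoters of that length, 8.30% held the GAS pattern and 3.44% the ISRE core. The called genes come from lists of interferon-induced genes, and matches in uncalled list members were not counted apart. The shares therefore cannot be read as a trait of genes with an interaction. A match describes letters and is not evidence of binding, and these copies arose from one another, so their matches are not independent.

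The replication genes that were called rose in WT and did not pass in DKO. Of 30 genes of the cell cycle and DNA replication, 5 were called below 0 and 0 above, 29 estimates were below 0, and the median interaction was -0.90. After DSS 12 of the 30 rose and 1 fell in WT, and 1 rose and 9 fell in DKO. Over all genes 16.9% rose and 16.5% fell in WT, against 12.6% and 11% in DKO. Mcm5, a subunit of the replicative helicase, was at 48.7 and 51.2 CPM in WT at baseline, 66.9, 62.3 and 76.1 in DKO at baseline, 120.0, 115 and 112 in DSS WT and 74.4, 44.7 and 37.98 in DSS DKO. For Mcm5 the interaction was -1.60 ± 0.30 (adjusted p = 0.0281). DSS DKO replicate 1 lay among the baseline DKO libraries and replicates 2 and 3 below them. The helicase subunits Mcm6 (interaction -1.14 ± 0.22, adjusted p = 0.0297) and Mcm7 (interaction -1.04 ± 0.21, adjusted p = 0.0317), Rrm1, the large subunit of ribonucleotide reductase (interaction -1.09 ± 0.24, adjusted p = 0.0435), and Tyms, thymidylate synthase (interaction -0.99 ± 0.21, adjusted p = 0.0439), had the same pattern. Of the 5 calls, 5 remained without DSS DKO replicate 1 or 3, 2 without DSS WT replicate 1, 1 without baseline DKO replicate 2 and 0 without each of the other 7 libraries.

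The 6 called genes of the heat shock and unfolded protein responses lay below 0. Of 19 heat shock genes, 3 were called below 0 and 0 above, with a median interaction of -0.68. After DSS 14 rose and 0 fell in WT, against 9 rising and 1 falling in DKO. Over all genes 16.9% rose and 16.5% fell in WT, against 12.6% and 11% in DKO. Hsp90aa1, the inducible form of HSP90, was at 157 and 173 CPM in WT at baseline, 182, 161 and 206 in DKO at baseline, 772, 899 and 734 in DSS WT and 356, 313 and 185 in DSS DKO. For Hsp90aa1 the interaction was -1.64 ± 0.31 (adjusted p = 0.0268). It rose in both genotypes (2.28 ± 0.25 in WT, 0.64 ± 0.20 in DKO), and the DSS libraries of the 2 did not overlap. Hspa4l, an HSP70-related exchange factor (interaction -1.41 ± 0.26, adjusted p = 0.0251), and Stip1, which links HSP70 to HSP90 (interaction -1.52 ± 0.30, adjusted p = 0.0317), rose in WT and did not pass in DKO. Of 28 genes of the unfolded protein response, 3 were called below 0 and 0 above, with a median of -0.32; 17 rose and 2 fell in WT, and 8 rose and 1 fell in DKO. Sdf2l1, an endoplasmic reticulum chaperone partner, was at 32.9 and 31.4 CPM in WT at baseline, 34.2, 35.7 and 50.3 in DKO at baseline, 112, 101 and 101 in DSS WT and 60.99, 37.6 and 40.3 in DSS DKO. For Sdf2l1 the interaction was -1.5 ± 0.29 (adjusted p = 0.0277). The disulphide isomerases Pdia6 (interaction -1.04 ± 0.21, adjusted p = 0.0304) and Pdia4 (interaction -1.0 ± 0.20, adjusted p = 0.0350) completed the 3. The heat shock element is GAA, TTC and GAA with any 2 bases between neighbours, searched on both strands. It was in 0 of the 2 called heat shock genes with a promoter and in 0.603% of all promoters. The ERSE element is CCAAT and CCACG with any 9 bases between them. It was in 1 of the 3 called unfolded protein response promoters, that of Pdia6, and in 0.119% of all. Matches in uncalled members of these lists were not counted apart. Of the 6 calls of both lists, 0 remained without baseline WT replicate 1 or 2, DSS WT replicate 2 or 3 or replicate 2 of DSS DKO, and 6 without replicate 1 of DSS DKO or 3.

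**Figure D4:**
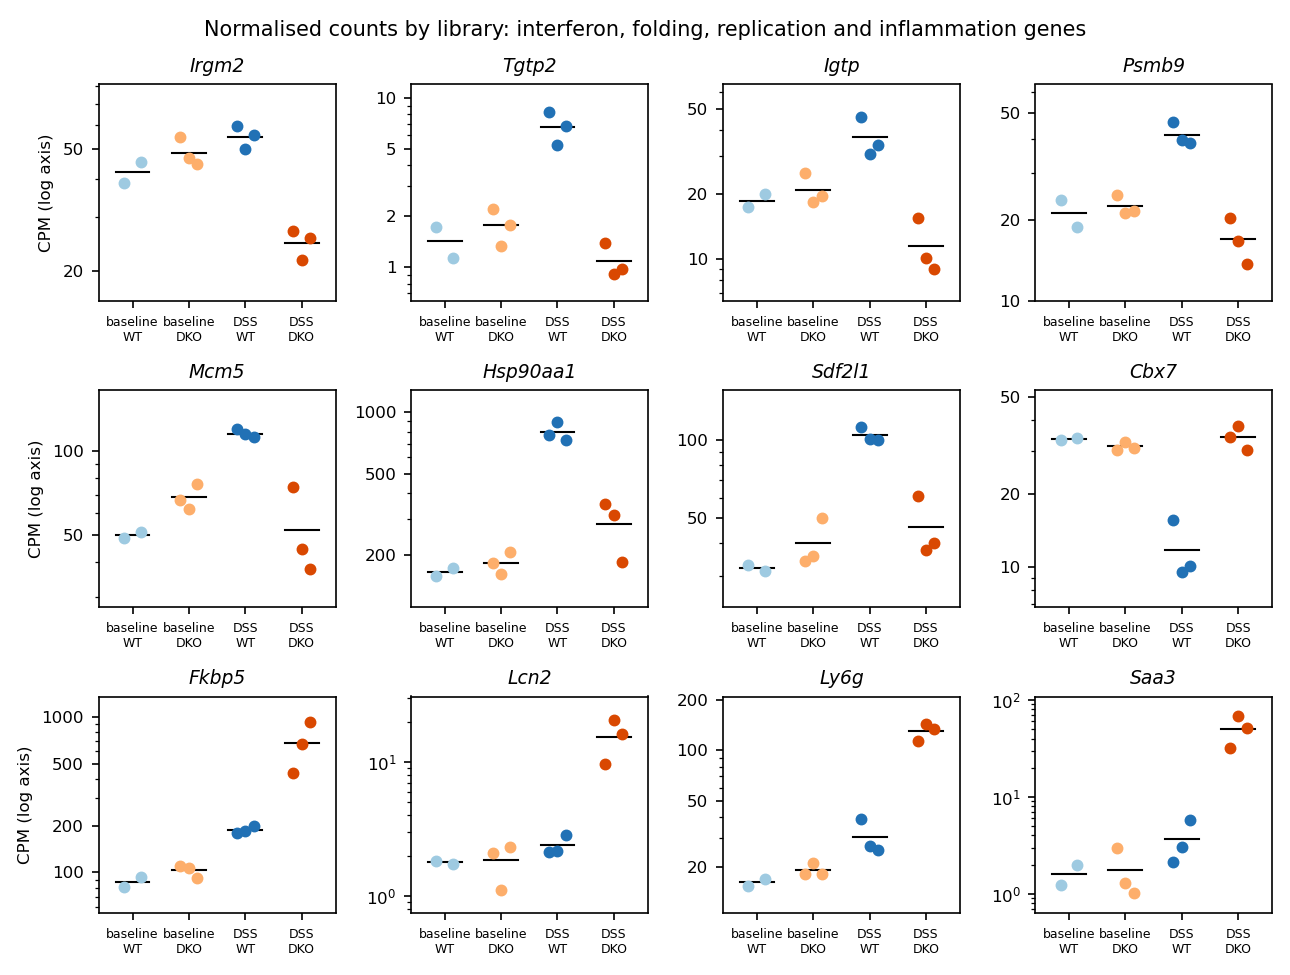
TMM-scaled CPM (y axes, logarithmic) of 12 genes called in the interaction, 1 point per library (baseline WT n = 2, the other groups n = 3), with lines at group means. In the first 7 genes every DSS WT library lay above every DSS DKO library, in Cbx7 below, and in Fkbp5, Lcn2, Ly6g and Saa3 DSS DKO lay above every other library. The genes were chosen by their call, so this separation is a description.

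The genes of neutrophils and of epithelial defence that were called rose in DKO, and rose less or did not pass in WT. Of 18 neutrophil genes, 2 were called above 0 and 0 below, with a median interaction of 1.5. After DSS 13 of the 18 rose in DKO and 6 in WT, against 12.6% and 16.9% of all genes. Ly6g, a surface protein of neutrophils with close paralogs, was at 15.5 and 17.1 CPM in WT at baseline, 18.2, 21.3 and 18.2 in DKO at baseline, 38.97, 26.8 and 25.4 in DSS WT and 113, 144 and 135 in DSS DKO. For Ly6g the interaction was 1.86 ± 0.24 (adjusted p = 0.0106). Mmp8, the neutrophil collagenase, was at 1.04, 1.14 and 1.06 CPM in DSS WT and 5.20, 10.5 and 7.37 in DSS DKO. For Mmp8 the interaction was 3.05 ± 0.54 (adjusted p = 0.0207). The 18 genes summed to 57.3 to 66.1 CPM in baseline WT, 55.1 to 86.2 in baseline DKO, 80.5 to 87.6 in DSS WT and 221 to 293 in DSS DKO. Ly6g alone made up 113, 144 and 135 CPM of the DSS DKO sums. Csf3r had a mean of 84 raw counts in DSS WT and 64 in DSS DKO, and Hdc 175 and 151. Between DKO and WT after DSS, 11.2% of all genes were called in either direction. Of the 18 genes, 8 were called above 0 and 0 below in that comparison, with 16 estimates above 0 and 2 below. Each had counts in every library except Fpr2 and Stfa2l1, and the receptor gene Cxcr1, which did not pass the filter, was at 0 in 9 libraries. Cd177, a surface protein known from neutrophils and absent from the list, went the other way: it rose in WT and fell in DKO, from 505, 502 and 727 to 283, 204 and 228 CPM (interaction -2.18 ± 0.28, adjusted p = 0.00912). Whether more neutrophils or more RNA per cell lay behind the list was not tested.

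Of 27 genes of the interleukin 22 and STAT3 response, 2 were called above 0 and 0 below, with a median interaction of 0.78. Lcn2, which withholds iron from bacteria, was at 1.82 and 1.74 CPM in WT at baseline, 2.105, 1.11 and 2.33 in DKO at baseline, 2.14, 2.18 and 2.86 in DSS WT and 9.68, 20.6 and 16.2 in DSS DKO. For Lcn2 the interaction was 2.64 ± 0.47 (adjusted p = 0.0207). Saa3, an acute-phase apolipoprotein, was at 1.23 and 1.999 CPM in WT at baseline, 2.97, 1.31 and 1.01 in DKO at baseline, 2.14, 3.06 and 5.78 in DSS WT and 32.1, 67.6 and 51.9 in DSS DKO. For Saa3 the interaction was 3.69 ± 0.74 (adjusted p = 0.0440). In both genes DSS WT overlapped the baseline libraries and DSS DKO lay above every other library. Cxcl1, a chemokine that attracts neutrophils, was the 1 called of 30 TNF and NF-kB response genes (median 0.52) and rose in both genotypes, to 0.980, 1.96 and 2.50 CPM in WT and 4.42, 5.55 and 6.17 in DKO (interaction 2.63 ± 0.56, adjusted p = 0.0416). Ly6c1, a surface protein with close paralogs, was the 1 called of 24 genes of fetal-like regeneration (interaction 2.42 ± 0.42, adjusted p = 0.0199). Of inflammasome and cell death genes, 2 of 29 were called above 0, the cytokine gene Il18 (interaction 0.96 ± 0.18, adjusted p = 0.0239) and Casp12 (interaction 2.03 ± 0.45, adjusted p = 0.0440), and 1 below, the gasdermin Gsdmc3, which has close paralogs (interaction -1.22 ± 0.24, adjusted p = 0.0296). Lcn2, Saa3 and Cxcl1 lost their calls without baseline WT replicate 1 (adjusted p = 0.0986, 0.123 and 0.119) and without DSS DKO replicate 2 (adjusted p = 0.0701, 0.106 and 0.110).

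Glucocorticoid-responsive genes were called above 0, 7 of 25 with 0 below and a median interaction of 0.69. After DSS 18 of the 25 rose in DKO and 9 in WT, against 12.6% and 16.9% of all genes. Fkbp5, a chaperone that limits the glucocorticoid receptor, was at 80.2 and 93.5 CPM in WT at baseline, 111, 107 and 92.1 in DKO at baseline, 180.1, 185 and 199.7 in DSS WT and 438, 669.8 and 920.1 in DSS DKO, rising in both genotypes (interaction 1.59 ± 0.31, adjusted p = 0.0312). Zbtb16, a transcription factor induced by the same receptor, was at 3.90 and 1.57 CPM in WT at baseline, 2.29, 3.20 and 2.76 in DKO at baseline, 2.29, 1.25 and 1.17 in DSS WT and 10.3, 34.9 and 45.7 in DSS DKO. For Zbtb16 the interaction was 4.26 ± 0.81 (adjusted p = 0.0373). Depp1 was at 2.72, 3.88 and 2.97 CPM in DSS WT and 7.88, 24.9 and 33.4 in DSS DKO. For Depp1 the interaction was 3.88 ± 0.69 (adjusted p = 0.0274). In all 3 genes DSS DKO replicate 1 was the lowest of its group and still above each DSS WT library. The other called members were Mt1, a metallothionein (interaction 1.85 ± 0.37, adjusted p = 0.0384), Tat, which breaks down tyrosine (interaction 1.28 ± 0.25, adjusted p = 0.0304), Nfil3, a transcription factor also tied to the clock (interaction 1.11 ± 0.25, adjusted p = 0.0462), and Lcn2. The labels give no corticosterone or body weight. Of the 7 calls, 0 remained without baseline WT replicate 1 or 2, baseline DKO replicate 1, DSS WT replicate 2 or 3 or DSS DKO replicate 2, 1 without baseline DKO replicate 3, 2 without baseline DKO replicate 2, 6 without DSS WT replicate 1 or DSS DKO replicate 3, and 7 without replicate 1 of DSS DKO.

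Among 18 circadian clock genes, 2 were called above 0 and 0 below, with a median interaction of 0.67. Nr1d1, the clock repressor REV-ERB alpha, was at 96.7 and 82.3 CPM in WT at baseline, 83.9, 77.4 and 61.3 in DKO at baseline, 3.78, 2.70 and 2.73 in DSS WT and 8.46, 9.78 and 11.9 in DSS DKO. It fell in both genotypes and less in DKO (-4.86 ± 0.21 in WT, -2.89 ± 0.19 in DKO), with an interaction of 1.98 ± 0.26 (adjusted p = 0.0106), and lost its call without baseline WT replicate 1 (adjusted p = 0.0621). The time of day of collection is not in the labels. Neat1, the RNA scaffold of paraspeckles, had the same reduced fall, from 1022 and 1193 to 187, 168 and 183 CPM in WT and from 934, 921 and 581 to 428, 461 and 362 in DKO (interaction 1.66 ± 0.25, adjusted p = 0.0135). Malat1, its neighbour on chromosome 19, was at 561 to 1356 CPM over all libraries, with an interaction of -0.13 ± 0.38 (adjusted p = 0.893). Reduced rises were those of P4ha1, a collagen prolyl hydroxylase (interaction -1.07 ± 0.18, adjusted p = 0.0173), and Uhrf2, a ubiquitin ligase (interaction -0.84 ± 0.15, adjusted p = 0.0222). Ccdc116 (interaction 1.62 ± 0.26, adjusted p = 0.0156) and Pan2, a subunit of a deadenylase (interaction 0.92 ± 0.17, adjusted p = 0.0239), had reduced falls.

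The called genes of sterol and lipid synthesis lay below 0 and those of fatty acid oxidation above 0. Of 25 cholesterol synthesis genes, 2 were called below 0 and 0 above, with a median interaction of -0.57 and 24 estimates below 0. After DSS 16 of the 25 fell in DKO and 3 in WT, against 11% and 16.5% of all genes. Tm7sf2, a sterol reductase, was at 34.7, 42.1 and 47.4 CPM in baseline DKO and 20.8, 11.99 and 13.8 in DSS DKO, against 35.3 and 38.5 and 34.7, 38.3 and 42.2 in WT (interaction -1.47 ± 0.29, adjusted p = 0.0304), and Dhcr7, which makes the last step to cholesterol, had the same pattern (interaction -1.01 ± 0.20, adjusted p = 0.0333). Fads1, a desaturase of polyunsaturated fatty acids, was the 1 called of 25 lipid synthesis genes (interaction -1.93 ± 0.31, adjusted p = 0.0156; list median -0.02). Of 32 genes of fatty acid oxidation, ketogenesis and PPAR targets, Creb3l3, a membrane-bound transcription factor (interaction 2.25 ± 0.43, adjusted p = 0.0277), and Cyp4b1, a fatty acid hydroxylase, were called above 0, with a median of 0.57. Cyp4b1 was at 12.8, 13.6 and 13.7 CPM in DSS WT and 58.7, 143 and 124 in DSS DKO. For Cyp4b1 the interaction was 2.91 ± 0.53 (adjusted p = 0.0317). Of 40 xenobiotic metabolism genes, Cyp3a13 was called above 0 (interaction 1.36 ± 0.27, adjusted p = 0.0312) and Ces1f (interaction -1.21 ± 0.23, adjusted p = 0.0274) and Gstm3 (interaction -1.25 ± 0.27, adjusted p = 0.0424), both with close paralogs, below 0. Of these 8 calls, 0 remained without baseline WT replicate 1, 1 without baseline WT replicate 2, baseline DKO replicate 3, DSS WT replicate 2 or 3 or replicate 2 of DSS DKO, and 8 without replicate 1 of DSS DKO or 3.

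Enteroendocrine genes had 1 call in each direction among 22, and 18 estimates above 0 with a median of 0.51. Chga, the granule protein chromogranin A, was at 43.2 and 48.8 CPM in WT at baseline, 44.4, 44.2 and 51.4 in DKO at baseline, 32.9, 20.4 and 21.5 in DSS WT and 61.5, 102 and 74.8 in DSS DKO, a fall in WT and a rise in DKO (interaction 1.65 ± 0.31, adjusted p = 0.0268). Insl5, a hormone of colonic L cells, was at 31.9, 37.2 and 27.6 CPM in DSS WT and 11.7, 10.2 and 7.89 in DSS DKO. For Insl5 the interaction was -1.70 ± 0.33 (adjusted p = 0.0297). Both calls were lost without baseline WT replicate 1 (adjusted p = 0.0986 and 0.0886) and without DSS DKO replicate 2 (adjusted p = 0.0705 and 0.0891).

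Published targets of miR-181 did not share a direction. Of 51 measured, 2 were called above 0, 1 below and 48 were not called; 24 estimates were above 0 and 27 below, with a median of -0.02. Cbx7, a Polycomb protein, was at 33.3 and 33.97 CPM in WT at baseline, 30.3, 32.7 and 30.7 in DKO at baseline, 15.6, 9.49 and 10.1 in DSS WT and 34.1, 38.1 and 30.3 in DSS DKO: it fell in WT and stayed within 30.3 to 38.1 in the 6 DKO libraries (interaction 1.65 ± 0.26, adjusted p = 0.0152). Tgfbi, a matrix adhesion protein, rose in DKO, from 12.3, 8.21 and 8.52 to 50.4, 80.6 and 64.9 CPM (interaction 2.11 ± 0.37, adjusted p = 0.0222). S1pr1, a sphingosine-1-phosphate receptor, was at most 2.13 CPM in any library and rose in WT (interaction -3.10 ± 0.66, adjusted p = 0.0414). The 3 genes are the called ones, so the 27 bases around each match to the miR-181 seed in their annotated 3' UTRs (GENCODE M21, GRCm38) are printed, 5' to 3' as DNA, with the match TGAATGT in capitals.
Cbx7, chr15:79916299-79916305, minus strand: cctgcatattTGAATGTagaggttggg
Cbx7, chr15:79915992-79915998, minus strand: tcagacgaccTGAATGTattgggagga
S1pr1, chr3:115710731-115710737, minus strand: ttaacaccacTGAATGTgtagttctta
Tgfbi, chr13:56638828-56638834, plus strand: aagagaccatTGAATGTttttgaaacc
Coordinates are those of the 7 matched bases. Both sites of Cbx7 are followed by A, the base opposite the first position of the microRNA, and those of S1pr1 and Tgfbi are not. The 3' UTR of Cbx7 is 2509 bases long, that of S1pr1 1362 and that of Tgfbi 601. At baseline the log2 fold change of DKO against WT was -0.11 ± 0.19 for Cbx7 and 0.42 ± 0.28 for Tgfbi, and neither was called (adjusted p = 1 for each).

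The remaining genes with the lowest p are described by their interaction. Above 0 were Bmp8b, a bone morphogenetic protein that rose in DKO from 0.805, 0.847 and 0.757 to 9.16, 8.32 and 4.11 CPM (interaction 3.09 ± 0.45, adjusted p = 0.0123), Prss23, a serine protease that fell in WT (interaction 2.87 ± 0.41, adjusted p = 0.0123), Hyi, a reversed sugar isomerase gene (interaction 1.94 ± 0.28, adjusted p = 0.0123), and Rsad1, which fell in WT from 22.4 and 22.8 to 7.99, 5.72 and 6.37 CPM (interaction 2.01 ± 0.29, adjusted p = 0.0123). An antisense gene overlaps Prss23, and without the strand setting their reads cannot be told apart. Below 0 were Nxpe2, which fell in DKO from 120.4, 165 and 153 to 31.1, 43.04 and 40.2 CPM (interaction -1.87 ± 0.24, adjusted p = 0.00912), Aldh3b2, an aldehyde dehydrogenase (interaction -2.1 ± 0.30, adjusted p = 0.0123), Ttr, the thyroid hormone carrier transthyretin (interaction -2.11 ± 0.31, adjusted p = 0.0123), and Chid1, a chitinase-like protein that rose in WT and did not pass in DKO (interaction -1.13 ± 0.16, adjusted p = 0.0123).

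**Figure D5:**
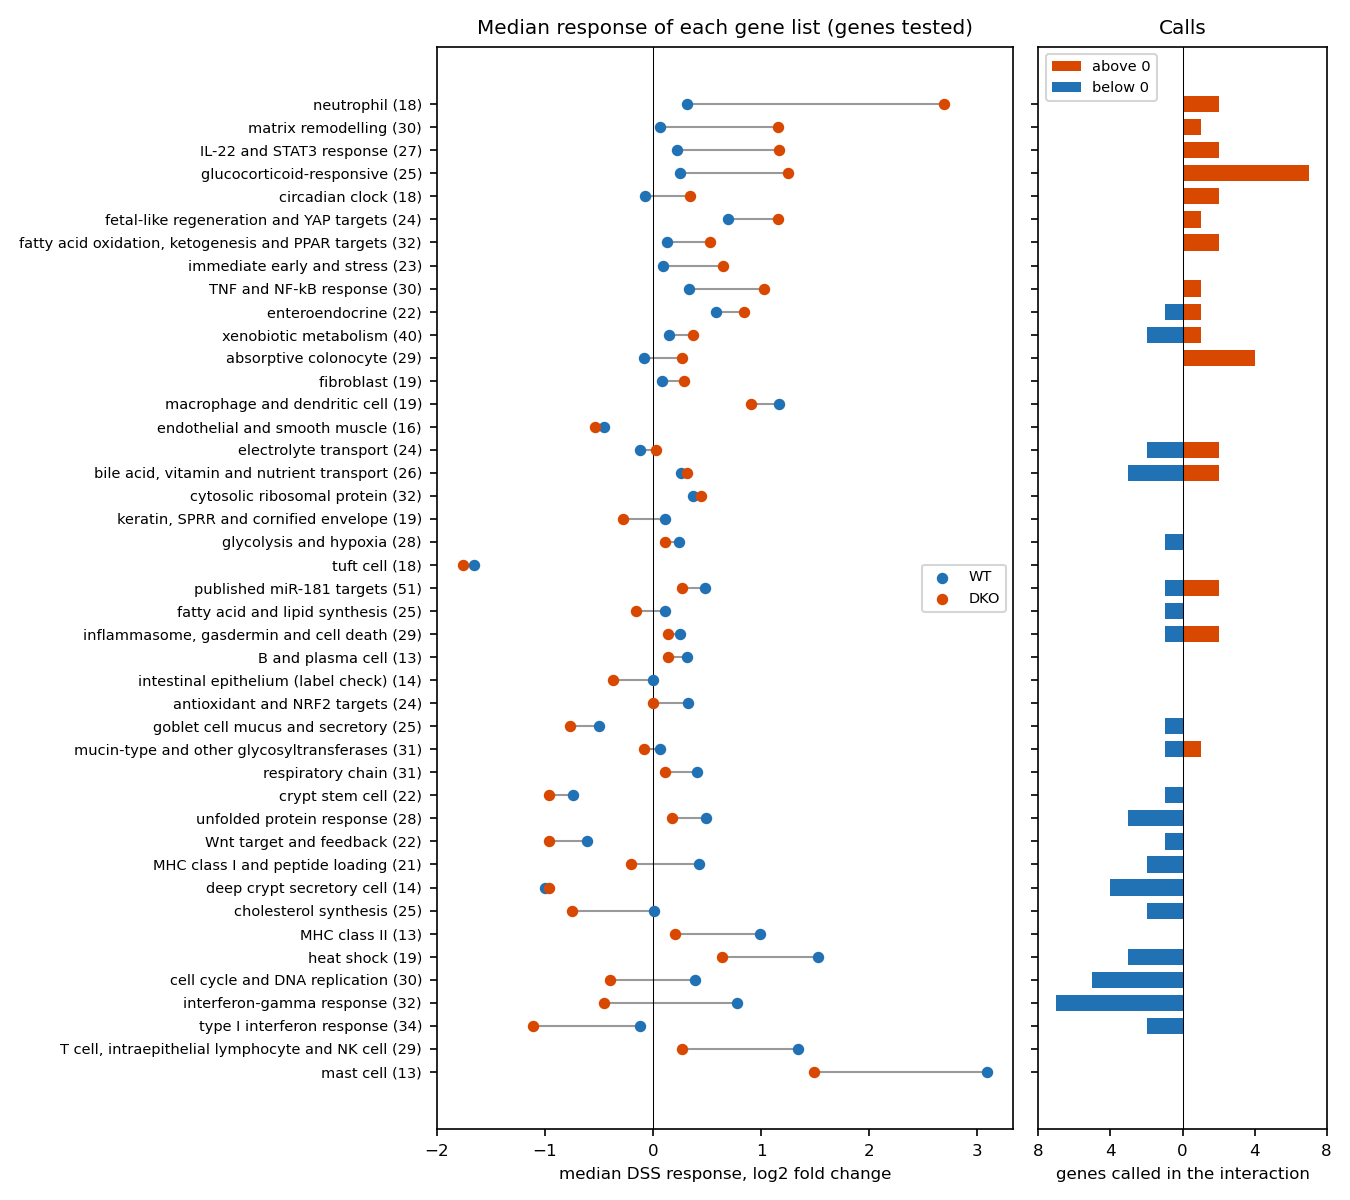
Left, median log2 fold change from baseline to DSS in WT (blue) and DKO (orange) for each of 43 gene lists, ordered by their median interaction, with the number of genes tested in parentheses. Right, number of genes called in the interaction above 0 (orange) and below 0 (blue); 14 lists had none.

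By edgeR 29 of the 43 lists held at least 1 called gene and 14 held none. The 14 comprised tuft cells (median interaction 0.02), mast cells (-1.98), macrophages and dendritic cells (0.19), B and plasma cells (-0.18), fibroblasts (0.27), endothelium and smooth muscle (0.13), keratins (0.09), antioxidant genes (-0.21), immediate early genes (0.55), cytosolic ribosomal proteins (0.10) and the respiratory chain (-0.30), with the epithelial markers (-0.19) and the T cell and MHC class II lists given with the interferon genes. DESeq2 called 2 genes each of the tuft cell, macrophage, mast cell, immediate early and epithelial lists, 3 of the fibroblast list and 0 of the B cell, endothelial and ribosomal protein lists. Without DSS DKO replicate 1, edgeR called 4 mast cell and 5 fibroblast genes. Mast cell genes summed to 97.0 to 246 CPM in DSS WT and 85.9 to 168 in DSS DKO, of which Kit, a receptor of mast cells and other cells, took 59.1 to 64.8 and 61.7 to 101. Il1rl1, also in these sums, had a mean of 65 raw counts in DSS WT and 1582 in DSS DKO. Of the 13 mast cell genes 8 rose and 1 fell in WT, and 2 rose and 1 fell in DKO. Over all genes 16.9% rose and 16.5% fell in WT, against 12.6% and 11% in DKO. Between DKO and WT after DSS, 1 of the 13 was called above 0 and 5 below, against 11.2% of all genes in either direction. Mcpt1, a mast cell protease, was at 20.4, 103 and 56.8 CPM in DSS WT and 9.75, 9.16 and 3.56 in DSS DKO, with an interaction of -3.18 ± 1.00 that was not called (adjusted p = 0.132). Fibroblast genes summed to 400.0 to 454 CPM in DSS WT and 318 to 533 in DSS DKO, mostly from the collagen genes Col1a1 and Col1a2 in DSS WT. Of the 19 fibroblast genes 6 were called above 0 and 1 below between DKO and WT after DSS, against 11.2% of all genes in either direction. Dcn, the matrix proteoglycan decorin, was at 8.13, 6.92 and 10.3 CPM in DSS WT and 12.6, 47.8 and 57.5 in DSS DKO (interaction 1.63 ± 0.69, adjusted p = 0.243). Mcpt1, Dcn, Kit and Il1rl1 were named after their values were seen, and the part of mast cells and fibroblasts in the other results was not tested. In the respiratory chain list 30 of 31 estimates were below 0, 9 of them at an unadjusted p under 0.05, and DESeq2 and limma-voom called 0. In the antioxidant list 16 of 24 estimates were below 0, 8 at an unadjusted p under 0.05, of which DESeq2 called 3. The keratin list had 7 genes at an unadjusted p under 0.05, 4 above and 3 below 0, and DESeq2 called 5 of its genes. Limma-voom called 0 genes of all 14 lists.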

How the data were processed

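Per the labels' protocols, RNA of Percoll-treated colonic epithelial cells was enriched for polyadenylated RNA on oligo(dT) beads and made into libraries with the NEBNext Ultra II RNA kit. STAR and the mouse build mm10 are named in the submitters' processing notes. For the STAR version, the read counter, the annotation and the strand setting the sources used here give nothing, so reads of near-identical, overlapping or antisense genes are uncertain. The deposited table holds raw counts of 54513 genes in 11 columns, each matched to a library by name, with no normalization by the authors.

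In R 4.3.3, edgeR 4.0.16 filtered genes (filterByExpr, minimum count 10; 19267 left), scaled libraries by TMM and fitted group means to all libraries by robust quasi-likelihood. The common biological coefficient of variation was 0.234. Contrasts were tested with two-sided F-tests and Benjamini-Hochberg adjustment over all 19267 genes; each standard error is the log2 fold change over the root of its F. Positions came from GENCODE M21 and RefSeq (GRCm38) for 95.6% of genes. No 2 replicates agreed within sampling noise, with a chi-square per degree of freedom of 15.9 to 897. Tested on simulated counts for the interaction (18842 genes), the fit recovered 0% of genes changed 1.5-fold, 5.97% changed 2-fold and 71.2% changed 4-fold, with 3 false calls among 54. The simulation changed 67, 67 and 66 genes by these folds, in DSS DKO alone, and passed over genes with low counts.

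The members, the 43 lists and the tests were chosen with earlier results of these data known. Named genes were the 12 lowest p above and below 0 at a mean log2 CPM of at least 1, up to 3 called members of each list, up to 8 reversed, enlarged and reduced genes, and the miR-181 host genes; unnamed gene models were passed over. Igtp, Irgm1, Fkbp5, Zbtb16, Mt1, Apoa1, Rrm1, Tyms and Trpv6 are further called members of their lists and were named after their values were seen. A few genes that the rule chose are not reported here. Alternatives were DESeq2 (1.42.0) size factors and Wald test, limma-voom (3.58.1), no filter and a minimum count of 50, no robust moderation, ribosomal RNA entries removed, autosomal genes alone, a replicate block, a 1.5-fold minimum and each library left out. Leaving out baseline DKO replicates 1 and 2 together was added after seeing the data.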

Additional observations from a re-analysis of the deposited data

Results flagged for a closer look

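The DSS responses of WT and DKO differed by the interaction test in 302 genes of 19267, and 44 of these had called responses of opposite sign in the 2 genotypes, 42 of them on autosomes. The second count rests on the same libraries as the first. Both moved with the library left out: the 44 became 1 to 193 and the 302 became 2 to 1498.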

How the results depend on the processing

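The number of calls was not stable. None of 93 called genes (chosen by the naming rule, or added to it as list members) reversed its interaction under any of the 22 settings run. These genes were chosen by their call, and the settings reuse all or most of the same libraries, so this is no test of direction. Interaction calls changed from 302 (149 above 0, 153 below, 286 autosomal) to 1375 by DESeq2 (614 above, 761 below, 1323 autosomal), to 1469 without a low-count filter (764, 705, 1409), to 26 at a 1.5-fold minimum (12, 14, 26) and to 86 with baseline DKO replicates 1 and 2 both left out (20, 66, 82). DESeq2 size factors in the edgeR fit gave 329, limma-voom 286, a minimum count of 50 gave 403, no robust moderation 288, removal of ribosomal RNA entries 297 and autosomal genes alone 276. The share of calls above 0 moved by over 10 points to 66.2% without DSS WT replicate 1, 36.7% without DSS WT replicate 3 and 23.3% without both baseline DKO libraries, where the median of all genes was 0.107. With 1 library left out the counts were 2 to 1498 (1 to 675 above 0, 1 to 823 below, 2 to 1450 autosomal).

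Over all genes, the classes (127 with a response called in WT only, 86 in DKO only, 44 reversed, 25 enlarged, 20 reduced and 0 in neither) became 670, 381, 87, 80, 121 and 36 by DESeq2 and 543, 437, 120, 150, 165 and 54 without a filter. They became 6, 15, 0, 3, 1 and 1 at a 1.5-fold minimum and 43, 23, 11, 7 and 2, with neither unchanged at 0, without both baseline DKO libraries. A minimum count of 50 gave 32 reduced genes. The order of the first 2 classes turned at the 1.5-fold minimum and without 5 of the libraries. Leaving out 1 library gave 0 to 616, 0 to 498, 1 to 193, 1 to 116, 0 to 63 and 0 to 12.

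DSS response calls ranged from 2775 to 7378 in WT and from 2605 to 5788 in DKO with 1 library left out, and became 1649 and 1100 at a 1.5-fold minimum; that of DKO became 957 without both baseline DKO libraries. DKO against WT after DSS gave 2165 calls, 691 to 3064 with 1 library left out and 308 at a 1.5-fold minimum. At baseline the 5 calls became 20 by DESeq2, 79 without a filter, 3 for autosomal genes alone, 2 at a 1.5-fold minimum, 1 without both baseline DKO libraries and 1 to 5 with 1 library left out.

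Whether replicate numbers pair the libraries could not be decided from groups of 2 or 3 libraries. Same-numbered libraries of different groups correlated at -0.0705 to 0.302 and did not all correlate best with each other. Between DSS WT and DSS DKO, replicates 1 (0.302) and 3 (0.201) did, and replicate 2 did not (0.0194). With a replicate block the interaction gave 318 calls, 229 of the 286 autosomal ones among them, and baseline 3. The cause of these changes was not tested. In the simulation 5.97% of changes were recovered at 2-fold and 71.2% at 4-fold, so many changes of 2-fold or less may be missed. Recovery depends on how many genes change, and the simulation changed few. In the data 234 of the 286 called autosomal genes differed at least 2-fold.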

Other observations

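Of the 15 called genes on the sex chromosomes, 11 were X-linked, 4 of them above 0 and 7 below. Xpnpep2, an aminopeptidase of cell membranes, fell in WT from 8.24 and 7.93 CPM to 5.09, 5.84 and 4.92. In DKO it rose, to 13.3, 20.3 and 20.8 CPM, with an interaction of 1.81 ± 0.27 (SE; adjusted p = 0.0126 by edgeR). Il13ra1, a receptor chain for interleukin 13, rose in WT to 146, 159.8 and 155 CPM and was at 95.6, 90.3 and 97.7 in DSS DKO (interaction -0.66 ± 0.14, adjusted p = 0.0417).

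All 4 Y-linked calls lay below 0. Ddx3y was at 0.823, 0.895 and 0.587 CPM in DSS WT and at 0.204, 0.162 and 0.181 in DSS DKO, with no overlap (interaction -1.88 ± 0.28, adjusted p = 0.0123). These are traces near the floor, against 42.6 to 54.9 CPM at baseline. Eif2s3y, Kdm5d and Uty likewise reached at most 0.941, 0.803 and 0.373 CPM in a DSS library. The source of the traces was not tested. Since baseline libraries had the male pattern and DSS libraries the female one, DSS and sex cannot be told apart for these 15 genes.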
